A study of Homo sapiens with 40 samples.

Results

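The genes described here are those of the major histocompatibility complex (MHC) class II pathway: CIITA, the transactivator that switches the pathway on, CD74, the invariant chain, and 6 class II chain genes, HLA-DRA, HLA-DRB1, HLA-DMA, HLA-DMB, HLA-DPA1 and HLA-DPB1. They were taken by exact gene symbol, which found 8 of 8 among the 59251 symbols of the count table. Reads per gene were measured in 40 libraries of the human lung carcinoma line H1299, as 4 cultures of each of 10 lines.

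Parental H1299 cells, a leader line (3L2 in the labels) and a follower line (3F2) were untreated. Leader and follower are the study's names for cells at the front of a collectively invading group and those behind. The other 7 lines were CRISPR-Cas9 edited, and the series title places the knockouts in leader cells. They were MYO10 JAG1 WT clones 38 and 75, JAG1 KO clones 35 and 72, MYO10 KO clones 98 and 99, and clone 84, whose title says KO and whose genotype entry says MYO10 KD (used here as the knockdown clone). JAG1 encodes a Notch ligand and MYO10 an unconventional myosin of filopodia. Each edited line is 1 clone, so a genotype and the clone that carries it can be told apart only where 2 clones share the genotype. The sample titles name the 4 cultures of a line BIO REP 1 to 4. The labels do not say how independently these cultures were grown, so p-values measure the spread between them, which may still be technical.

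Class II molecules are pairs of an alpha and a beta chain that present peptides from the endosomal route to CD4+ T cells. The invariant chain escorts newly made class II pairs to the endosome, where HLA-DM exchanges its remaining fragment for peptide. CIITA binds no DNA itself: it joins the factors RFX, CREB and NF-Y on the X and Y boxes of class II promoters. Professional antigen-presenting cells make CIITA constitutively, and many other cells, carcinoma cells among them, can make it after interferon-gamma.

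The promoter stretches that carry an X box followed by a Y box are shown here because this pair of elements is what the CIITA-recruiting complex occupies. They were read from RefSeq windows of 250 bases before the gene start (build GRCh38.p14), which 6 of the 8 genes have. A pair was an X-like match (AG, any 2 bases, AC, any 3 bases, TG) on the sense strand followed, after 10 to 40 bases, by ATTGG or its reverse complement, the core of the NF-Y box. These letters were written down after these promoters had been read, so that a match is only a description. All 5 stretches lie on the minus strand of the genome and are printed 5′ to 3′ in the direction of the gene, with both motifs in capitals. CD74 is at chr5:150412949-150413001, HLA-DRB1 at chr6:32589880-32589937 and HLA-DMA at chr6:32953162-32953220. The last pair are class II beta genes that share the element, HLA-DQB1 at chr6:32666731-32666788 and HLA-DRB5 at chr6:32530363-32530420.
CD74: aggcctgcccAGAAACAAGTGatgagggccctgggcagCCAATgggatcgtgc
HLA-DRB1: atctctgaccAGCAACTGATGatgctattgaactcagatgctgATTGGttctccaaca
HLA-DMA: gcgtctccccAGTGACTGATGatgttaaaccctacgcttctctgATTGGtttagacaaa
HLA-DQB1: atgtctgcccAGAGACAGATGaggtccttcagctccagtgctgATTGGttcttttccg
HLA-DRB5: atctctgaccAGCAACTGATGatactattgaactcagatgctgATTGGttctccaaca

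Such a pair was present in 90 of 35116 windows (0.256%), against 10.3% with the X-like match alone on either strand and 32% with the NF-Y core alone. In CD74 the distance between both elements is 17 bases, in HLA-DRB1, HLA-DQB1 and HLA-DRB5 it is 22 and in HLA-DMA 23. HLA-DMB holds both motifs without this arrangement, HLA-DPB1 holds only the NF-Y core, and HLA-DPA1 holds neither in its windows, which says nothing about the factors themselves. The stretches of HLA-DRB1 and HLA-DRB5 are nearly the same, and reads of these genes can be shared between them.

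Library totals ran from 40038816 to 44013445 counts. The targeted genes were read first. MYO10 stood at 47.6 to 67.8 CPM (edgeR's cpm, each count taken relative to its library's scaled total) in the 8 libraries of the MYO10 KO clones, 134 to 190 in clone 84 and 387 to 596 in the WT clones. JAG1 was at 6.16 to 6.85 CPM in JAG1 KO clone 72 and at 30.4 to 33.9 in clone 35, against 37.6 to 58.5 in the WT clones, so transcript level separates clone 35 from them by little. The unedited leader line stood at 122 to 165 CPM of JAG1, so the WT clones were themselves below it. The carcinoma label was checked on 8 markers: VIM and KRT18 had at least 41552 and 1958 counts in every library and KRT8 from 143, in JAG1 KO clone 72, to 28992, whereas EPCAM had at most 9 counts in any library, SFTPB at most 6 and KRT19 at most 17.

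CIITA was measurable in every line and highest in the leader line. Its 4 leader libraries held 521, 531, 594 and 614 counts. The parental libraries held 215, 204, 195 and 266 counts, and the follower libraries 163, 153, 164 and 147. No library of any other line reached the leader range, the nearest being 361 counts in JAG1 KO clone 35. In bulk libraries, fewer cells that express a gene and less of its RNA per cell cannot be told apart.

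In CPM, CIITA stood at 13.9 ± 1.11 (SD, n = 4) in the leader line, 5.15 ± 0.768 in the parental cells and 3.85 ± 0.0725 in the follower line. Among the edited lines it was 7.45 ± 1.33 in JAG1 KO clone 35, 5.77 ± 0.973 in MYO10 KO clone 98, 5.30 ± 0.798 in MYO10 KO clone 99 and 5.09 ± 0.571 in JAG1 KO clone 72. The WT clones 75 and 38 stood at 4.21 ± 1.04 and 3.45 ± 0.619, and clone 84 at 3.67 ± 0.498. Down this order, the leader line differed from clone 35 (adjusted p = 2.67e-07, edgeR's quasi-likelihood test with Benjamini-Hochberg adjustment over 19703 genes) and clone 35 from clone 98 (log2 difference 0.37 ± 0.14 SE, adjusted p = 0.0292). The 7 further neighbours in the order did not differ beyond their spread by that test.

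A gene was called where its adjusted p was below 0.05 and its log2 fold change at least 1 in size. CIITA was higher in the leader line than in the parental cells by 1.44 ± 0.14 (SE) on the log2 scale (edgeR adjusted p = 2.43e-11) and than in the follower line by 1.86 ± 0.15 (edgeR adjusted p = 4.66e-15). Against the edited lines its log2 difference ran from 0.91 ± 0.14 for clone 35, which is under the fold threshold, to 2.01 ± 0.15 for WT clone 38. As a ratio of summed CPM these differences span 1.88 (95% counting interval 1.75 to 2.01) to 4.03 (3.68 to 4.43). Intervals and limits from counts cover counting error only.

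CIITA lies at chr16:10866222-10943021 on the plus strand (GENCODE annotation on GRCh38). Of its annotated exon bases, 2416 (11.6%) lie under the exons of DEXI on the opposite strand. DEXI is listed at 0 in all 40 libraries, and the sources used here do not say whether counting used strand.

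CD74 showed a wider gap. The leader libraries held 340, 461, 441 and 416 counts of CD74, and the other 36 libraries held between 2 and 15. The parental libraries were at 8, 5, 5 and 7, and the follower libraries at 14, 6, 6 and 9.

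The mean CD74 level was 10.2 ± 1.41 CPM (SD, n = 4) in the leader line, 0.147 ± 0.0365 in parental cells and 0.214 ± 0.0879 in the follower line. The edited lines ranged from 0.0873 ± 0.0499 in WT clone 75 to 0.251 ± 0.0696 in MYO10 KO clone 98. The ratio of leader to parental was 69.9 (95% counting interval 47.2 to 108), and over the 9 other lines it lay between 40.7 for clone 98 and 118 for WT clone 75. In log2 units the leader line was above the parental cells by 6.10 ± 0.27 (SE, edgeR adjusted p = 4.17e-22) and above the follower line by 5.56 ± 0.26 (edgeR adjusted p = 8.45e-23). Below the leader line, no neighbours in the order of CD74 levels differed past the adjusted p. Lines further apart in the order could differ: the follower line was called above WT clone 75 (log2 1.28 ± 0.45 SE, edgeR adjusted p = 0.0120). Calls between edited clones are given below. CD74 lies at chr5:150401637-150412929 on the minus strand and shares no exon base with another annotated gene.

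**Figure D1:**
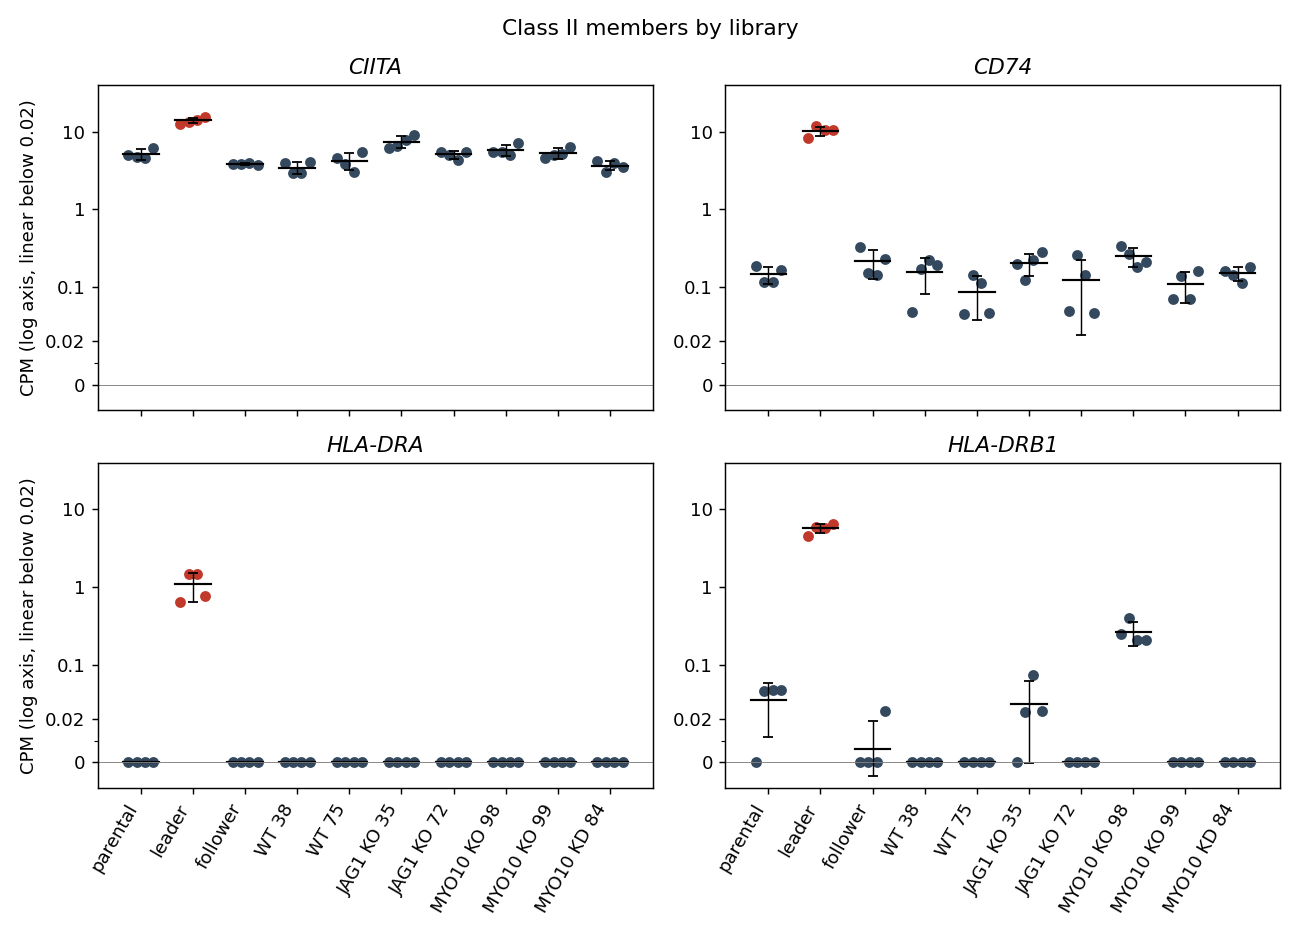
CPM of CIITA, CD74, HLA-DRA and HLA-DRB1 in each of the 40 libraries, on an axis that is logarithmic above 0.02 CPM and linear below it. Points are libraries, bars are the mean and SD of the 4 libraries of a line, and the leader libraries are red. The leader libraries lie above all others in the 4 panels, with CIITA at 13.9 CPM against 7.45 in the next line and CD74 at 10.2 against 0.251.

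HLA-DRA, the only alpha chain of the DR molecule, was read in the leader line alone. Its leader libraries held 26, 58, 62 and 31 counts, and all other 36 libraries held 0. Over 4 libraries a count of 0 allows up to 0.0171 to 0.0186 CPM, from a floor of 3 counts over the line. The leader mean of 1.09 ± 0.451 CPM (SD, n = 4) was thus at least 58.8-fold higher than in clone 35 and at least 63.7-fold higher than in clone 98, with the other 7 lines between. The edgeR adjusted p was 6.13e-07 against the parental cells and 2.06e-07 against the follower line. With DESeq2 these calls were lost (adjusted p = 0.362 and 0.288) although its fitted log2 fold changes, which against a line at 0 are no bound, stayed large at 7.99 and 7.91, beside 8.53 for both in edgeR.

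HLA-DRB1, the beta chain that pairs with it, held 189, 234, 240 and 259 counts in the leader libraries. MYO10 KO clone 98 came next with 11, 18, 9 and 9. The parental libraries held 0, 2, 2 and 2 counts, JAG1 KO clone 35 held 0, 1, 3 and 1, and the follower line had 1 read in its 4 libraries together.

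In the remaining 5 lines, both WT clones, clone 72, clone 99 and clone 84, HLA-DRB1 was at 0 in all 20 libraries. The leader level was 5.69 ± 0.778 CPM (SD, n = 4) and that of clone 98 was 0.267 ± 0.0926, a ratio of 21.2 (95% counting interval 15.8 to 29.1). Against the parental cells the ratio was 162 (74.1 to 443), and against the lines at 0 it was at least 312 to at least 329. The order leader, clone 98, parental was separated at both steps, with log2 differences of 4.39 ± 0.27 (SE, edgeR adjusted p = 2.57e-14) and 2.83 ± 0.52 (edgeR adjusted p = 3.18e-05). Further down, no neighbours in the order differed past the adjusted p, although parental cells and clone 35, on 6 and 5 reads, were each called above the 5 lines at 0 (edgeR adjusted p from 0.0146 to 0.0257).

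HLA-DRA lies at chr6:32439842-32445046 on the plus strand and HLA-DRB1 at chr6:32578769-32589848 on the minus strand, and neither shares exon bases with another annotated gene. HLA-DRB1 does share sequence with HLA-DRB5 and HLA-DRB6, so its split from them is uncertain. HLA-DRB5 held 47 reads in the leader line, 6 in clone 98 and 1 in the parental cells, and HLA-DRB6 held 2, both in the leader line.

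The other 4 chain genes had so few reads that they did not enter the test. HLA-DPB1, the beta chain of DP, held 3, 11, 15 and 12 counts in the leader libraries, 2 in 1 follower library and 0 in all others. It was at least 13.6- to at least 14.8-fold higher in the leader line than in the 8 lines at 0, and the ratio to the follower line was 20.6 (95% counting interval 5.35 to 176). HLA-DPA1, its alpha partner, had 1 read in 40 libraries, in a leader library. HLA-DPA1 (chr6:33064569-33080775, minus strand) and HLA-DPB1 (chr6:33075926-33087201, plus strand) overlap by 96 exon bases on opposite strands.

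HLA-DMA and HLA-DMB encode the exchange factor HLA-DM, and their reads were too few to place the leader line apart from all others. HLA-DMA (chr6:32948613-32969094, minus strand) held 4, 1, 1 and 4 counts in the leader libraries, 3, 3, 1 and 3 in MYO10 KO clone 98 and 0, 8, 4 and 0 in clone 99. Summed over a line it held 10 reads in the leader line, 1 each in parental cells, the follower line and WT clone 75, 3 in WT clone 38, 2 in clone 72 and 0 in clones 35 and 84. The ratio of the leader line to parental cells was 10.5 (95% counting interval 1.5 to 458), and a fit without the filter gave an edgeR adjusted p of 0.0954 there and 0.0586 against the follower line. The ratio of the leader line to clone 98 was 1.08 (95% counting interval 0.404 to 2.89) and to clone 99 it was 0.891 (0.345 to 2.25). HLA-DMB (chr6:32934629-32941070, minus strand) held 3 reads in 1 leader library, 2 in 1 follower library and 1 in 1 parental library. At this depth no difference in HLA-DMB was detectable.

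Of the 12 other class II genes, HLA-DQA1 and HLA-DQB1, the chains of DQ, had enough reads to be tested, and passed the filter on low counts through their leader libraries. HLA-DQB1 held 119, 156, 152 and 174 counts in the leader libraries, 11 in all in clone 98, 6 in the parental cells and 5 in the follower line, and the highest of the 36 other libraries held 7. HLA-DQA1 held 16, 26, 21 and 17 counts in the leader libraries and 1 in all others together. Both were called higher in the leader line against parental cells (edgeR adjusted p = 2.29e-12 and 1.19e-06) and against the follower line (edgeR adjusted p = 4.05e-13 and 4.32e-07). HLA-DQA2, HLA-DQB2, HLA-DRB3, HLA-DRB4, HLA-DOA, HLA-DOB, HLA-DPA2 and HLA-DPB2 were at 0 in all libraries.

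**Figure D2:**
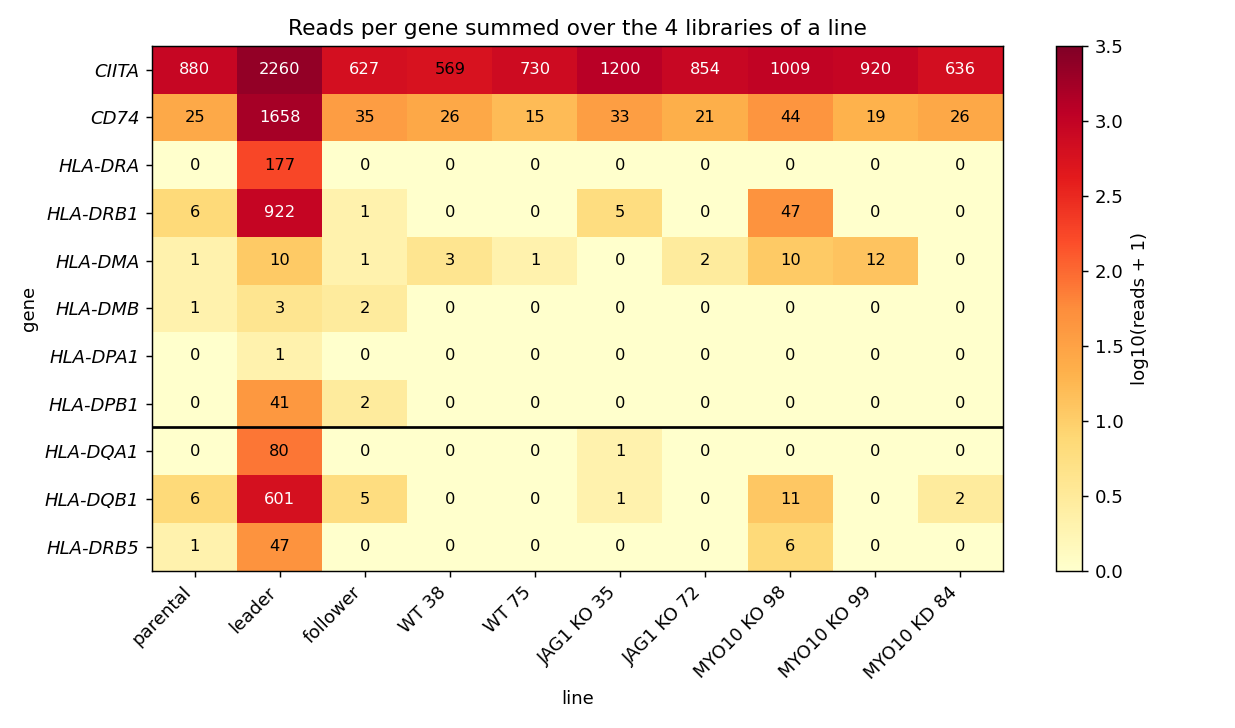
Reads per gene summed over the 4 libraries of each line, printed in the cells, with the colour giving log10 of the sum plus 1. The genes above the black line are the 8 described here and those below it are other class II genes. The leader column holds 922 reads of HLA-DRB1 and 601 of HLA-DQB1, and the next highest entries are 47 and 11 in MYO10 KO clone 98.

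The MHC segment of chromosome 6 was thinly covered in these files as a whole, which bears on every chain gene above. Of 142 protein-coding genes between HLA-F and KIFC1 (chr6:29722775-33409924), 96 (67.6%) had a median library under 10 counts, against 6573 of 18746 (35.1%) elsewhere in the genome. Between HLA-DRA and HLA-DPB1 the share was 16 of 18 (88.9%). RPS18, a ribosomal protein gene of the segment, held 37 reads over all 40 libraries, whereas the median of the 83 other ribosomal protein genes was 25634 counts per library and 7 of them were also under 10. HLA-E, a class I gene, had 2 reads in all and PSMB8, an immunoproteasome subunit gene, had none. A level near 0 in this segment therefore cannot be read as absence of the transcript, and the cause of the low coverage was not tested. The same files were used for every line, so lines are compared within a gene. CIITA and CD74 lie outside the segment.

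**Figure D3:**
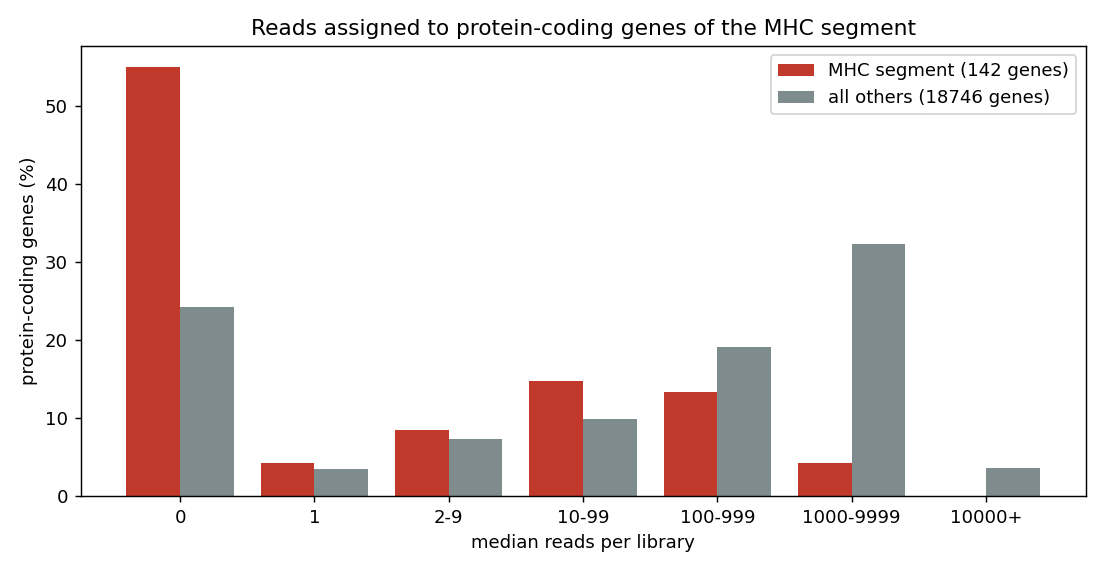
Share of protein-coding genes, in percent, by their median reads per library, for the 142 genes of the MHC segment (red) and the 18746 others (grey). In the segment 54.9% of genes had a median of 0, against 24.2% elsewhere.

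Counted over the whole list, 4 of the 8 genes were tested (CIITA, CD74, HLA-DRA and HLA-DRB1). HLA-DRA and HLA-DRB1 passed the filter on low counts through their leader libraries, so a count of calls that includes them is a description. All 4 were called higher in the leader line against the parental cells, where 3.22% of all genes tested were called higher, and against the follower line, where 12.7% were. Their median log2 fold change was 6.66 and 7.04, with all genes at -0.01 and 0.01. In each of these 4 genes all leader libraries lay above all 36 others, which was the case for 2.83% of the genes tested.

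The WT clones carry the editing without the knockout, and all 4 tested genes were called lower in them than in the leader line, where 4.85% of genes were called lower. As HLA-DRA and HLA-DRB1 were tested only through their leader libraries, this count is a description. CIITA fell by 1.87 ± 0.12 (SE) on the log2 scale (edgeR adjusted p = 1.6e-13) and CD74 fell by 6.41 ± 0.21 (edgeR adjusted p = 3.19e-22), each the average over both clones with the p of the weaker clone. HLA-DRA and HLA-DRB1 were at 0 in the 8 WT libraries (edgeR adjusted p = 5.7e-07 and 3.78e-16). With DESeq2, which called 3 of the 4, the call of HLA-DRA was lost here too (adjusted p = 0.431). HLA-DQA1 and HLA-DQB1 were called lower too.

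Set against each knockout and knockdown clone in turn, a comparison added after the data had been seen, the leader line had 4 of 4 tested genes called higher against clones 72, 98, 99 and 84, and 3 of 4 against clone 35. The shares of all genes called higher in the leader line were 10.7%, 9.41%, 8.02% and 3.91% in those clones, and 10.2% for clone 35. Against WT clones 38 and 75 singly the shares were 6.62% and 5.76%, again with 4 of 4. All of these comparisons share the leader libraries, through which HLA-DRA and HLA-DRB1 passed the filter, so the counts are descriptions.

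**Figure D4:**
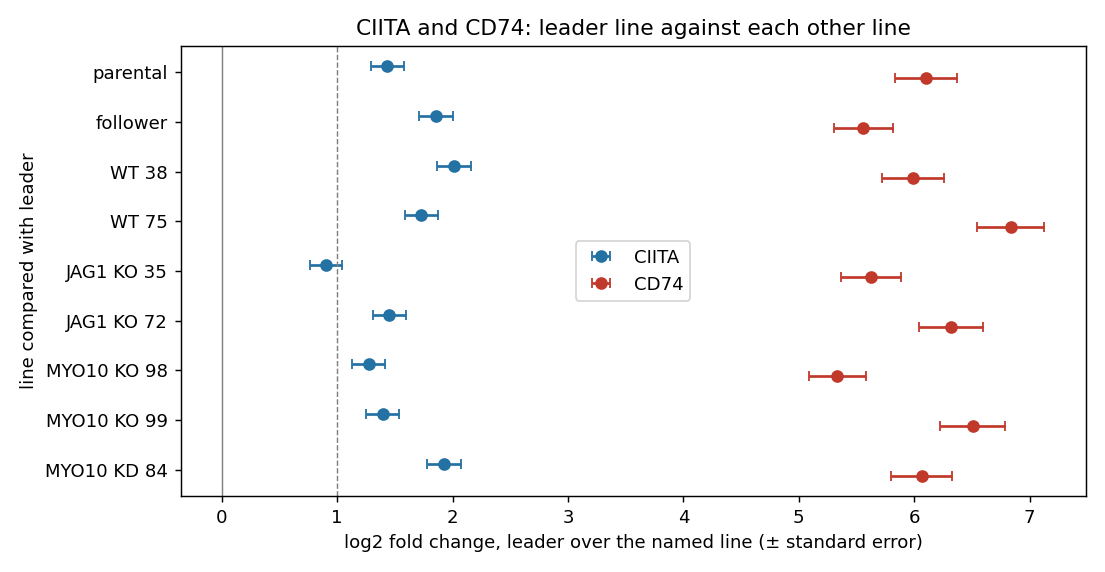
Log2 fold change of the leader line over each other line for CIITA (blue) and CD74 (red), with standard errors from edgeR, and a dashed line at the fold threshold of 1. CIITA lies between 0.91 and 2.01, with clone 35 alone to the left of the dashed line, and CD74 between 5.33 and 6.84.

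JAG1 and MYO10 editing was compared with the WT clones, where a gene's p is that of the weakest pair of clones. HLA-DRA was at 0 in all of these clones, and HLA-DRB1 was at 0 in both WT clones, clones 72 and 99 and clone 84, so only CIITA and CD74 could be called. In JAG1 KO clones 0 of these 2 were called by edgeR, with 0 at an unadjusted p under 0.05 and 0 by DESeq2, beside 2.06% of all genes. CIITA averaged 0.69 ± 0.10 (SE) higher there on the log2 scale. The adjusted p was 0.559 for the weakest pair and 3.24e-07 for the average over clones, both by edgeR. Clone 35 taken alone was called above clone 38 (1.11 ± 0.15, edgeR adjusted p = 1.8e-08) and was above clone 75 by 0.82 ± 0.15, and clone 72 was above them by 0.56 ± 0.15 and 0.27 ± 0.15.

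In MYO10 KO clones 0 of 2 were called, with 1 at an unadjusted p under 0.05 and 0 by DESeq2, beside 8.06% of all genes. That gene was CIITA, on average 0.54 ± 0.11 (SE) higher on the log2 scale, with an edgeR adjusted p of 0.107 for the weakest pair and 2.01e-05 for the average, under the fold threshold. Taken alone, clone 98 had HLA-DRB1 called higher than in WT clones 38 and 75 (edgeR adjusted p = 2.41e-07 and 2e-07), on 47 reads against 0 in each, at least 14.7-fold and at least 15.5-fold higher. HLA-DQB1 was called above both WT clones as well, on 11 reads against 0 (edgeR adjusted p = 0.0105 and 0.00963). Those reads were 4, 7, 0 and 0 in the clone 98 libraries. CD74 in clone 98 was called above WT clone 75 (log2 1.51 ± 0.43 SE, edgeR adjusted p = 0.00283) and not above WT clone 38 (0.66 ± 0.38, edgeR adjusted p = 0.143). Clone 99 had no reads of HLA-DRB1 or HLA-DQB1. Clone 35 taken alone had HLA-DRB1 called above both WT clones on 5 reads against 0 (edgeR adjusted p = 0.0243 and 0.0232) and CD74 above WT clone 75 (1.21 ± 0.46 SE, edgeR adjusted p = 0.0218). In clone 84 the count was 0 of 2 by either tool, with 0 at an unadjusted p under 0.05, beside 7.19% of all genes, and CIITA stood at -0.05 ± 0.13 (edgeR adjusted p = 1).

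The follower line and the parental cells had no gene called. HLA-DRA was at 0 in both, and none of the other 3 was called by edgeR or DESeq2, 1 had an unadjusted p under 0.05, and 20.3% of all genes were called. CIITA was 0.42 ± 0.15 (SE) lower in the follower line on the log2 scale (edgeR adjusted p = 0.0137), under the fold threshold. CD74 stood at 0.54 ± 0.40 (edgeR adjusted p = 0.248).

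Clones of 1 genotype were compared with each other to show the spread that a genotype carries. Between the WT clones, where HLA-DRA and HLA-DRB1 were at 0 in both, neither CIITA nor CD74 was called by either tool, with 0 at an unadjusted p under 0.05, beside 4.37% of all genes. Their CIITA difference was -0.29 ± 0.15 (SE, clone 38 against 75, edgeR adjusted p = 0.179).

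In the JAG1 KO pair, HLA-DRB1 was called higher in clone 35 than in clone 72, on 5 reads against 0, where 12.2% of all genes were called higher. The call (edgeR adjusted p = 0.0221) was lost without replicate 3 of clone 35 (adjusted p = 0.0969). CIITA was 0.55 ± 0.14 (SE) higher in clone 35, under the fold threshold (edgeR adjusted p = 0.00101).

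In the MYO10 KO pair, 2 of 4 were called higher in clone 98 than in clone 99, beside 4.27% of all genes. HLA-DRB1 held 47 reads against 0 (edgeR adjusted p = 3.54e-07) and was at least 15.5-fold higher. CD74 was higher by 1.18 ± 0.41 (SE) on the log2 scale (edgeR adjusted p = 0.0173), on 44 reads against 19, a ratio of 2.29 (95% counting interval 1.31 to 4.16). That call was lost on leaving out replicate 1 of clone 98 or replicate 1 or 3 of clone 99, with adjusted p from 0.0569 to 0.0712. HLA-DQB1 was called higher by edgeR as well, on 11 reads against 0 (edgeR adjusted p = 0.0124), and was not called by DESeq2. Its counts in the clone 98 libraries were 4, 7, 0 and 0. CIITA did not differ past the threshold between these clones (0.12 ± 0.14 SE, edgeR adjusted p = 0.531), nor did HLA-DMA have enough reads to be tested.

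The factors that CIITA joins on DNA were measured as well: RFX5, RFXAP and RFXANK of the RFX complex, NFYA, NFYB and NFYC, and CREB1. None of the 7 was called in any of the 10 comparisons by edgeR or DESeq2. Of all genes, edgeR called from 2.06% (JAG1 KO against WT clones) to 25.4% (leader against follower line). The number with an unadjusted edgeR p under 0.05 was 1 for the leader line against parental cells, 6 against the follower line and 3 for the WT clones against the leader line. RFX5 stood at 115 ± 2.83 CPM (SD, n = 4) in the leader line and 110 ± 4.55 in parental cells. It was 0.69 ± 0.05 (SE) higher on the log2 scale in the WT clones than in the leader line (edgeR adjusted p = 2.52e-13), under the fold threshold. The median log2 fold change of the 7 was 0.06 in the leader line against parental cells.

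Upstream of CIITA, 9 of 10 genes of the interferon-gamma axis were tested, and IFNG itself had 0 reads in all 40 libraries. SOCS1, a target and inhibitor of JAK signalling, was the only one edgeR called in the leader comparisons, higher against the parental cells (log2 1.30 ± 0.30 SE, edgeR adjusted p = 0.000426) and the follower line (2.92 ± 0.35, edgeR adjusted p = 9.13e-10). It stood at 1.93 ± 0.471 CPM (SD, n = 4) in the leader line, 0.778 ± 0.229 in parental cells, 0.251 ± 0.0816 in the follower line and 0.188 ± 0.0737 in WT clone 38. In the WT clones SOCS1 fell by 2.92 ± 0.28 against the leader line (edgeR adjusted p = 2.93e-08). Of all genes, edgeR called 9.76% in the leader line against parental cells and 25.4% against the follower line. Clone 84 carried 1.33 ± 0.863 CPM of SOCS1, called above the WT clones by 2.39 ± 0.29 on the log2 scale (edgeR adjusted p = 7.83e-06), while its CIITA was the second lowest of the 10 lines.

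IRF1, which acts on the interferon-responsive promoter of CIITA, differed by 0.60 ± 0.26 (log2, SE, edgeR adjusted p = 0.0715) between the leader line and parental cells. IRF1 was called higher in clone 98 than in clone 99 (1.12 ± 0.27, edgeR adjusted p = 0.000951). That call rests on replicate 4 of clone 98, with 1773 counts beside 595 to 715 in the other 3: without it, a check added after seeing the data, the difference was 0.58 ± 0.21 (edgeR adjusted p = 0.0262), under the fold threshold. JAK2 was called higher in the follower line than in parental cells (1.08 ± 0.07, edgeR adjusted p = 2.11e-18), and SOCS1 lower there (-1.62 ± 0.38, edgeR adjusted p = 0.000274).

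Genes that process antigen for class II gave 0 calls among 10 tested in the leader line against parental or follower cells, by edgeR and by DESeq2, with 5 and 6 at an unadjusted p under 0.05. Of all genes, edgeR called 9.76% and 25.4% there. CTSD, an endosomal protease gene, had its 4 leader libraries above all 36 others, at 179 ± 4.01 CPM (SD, n = 4) against 147 ± 10 in parental cells. CTSS, the protease that trims the invariant chain in antigen-presenting cells, held 53 reads in the leader line and 415 in all others together. IFI30, a thiol reductase of the endosome, was called lower in JAG1 KO clones than in WT clones (log2 -1.33 ± 0.11 SE, edgeR adjusted p = 0.000943) and higher in clone 98 than in clone 99 (1.04 ± 0.14, edgeR adjusted p = 5.5e-08). CTSV was called higher (1.09 ± 0.11, edgeR adjusted p = 2.41e-11) and BTN2A2, a butyrophilin gene, lower (-1.05 ± 0.08, edgeR adjusted p = 9.63e-16) in clone 35 than in clone 72. MIF, a ligand of CD74, and RAB4B were at 0 in all libraries. Of the 83 ribosomal protein genes other than RPS18, 7 also had a median under 10 counts. A 0 for MIF or RAB4B is therefore not read as absence of the transcript, and its cause was not tested.

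Of 12 class I genes listed, 7 were tested. In the leader line against parental cells 0 of the 7 were called by edgeR or DESeq2, with 2 at an unadjusted p under 0.05. There edgeR called 9.76% of all genes, so 0 of 7 is near that share. The median log2 fold change of the class I genes was -0.01, with all genes at -0.01. NLRC5, the class I transactivator related to CIITA, was called lower in the leader line than in the follower line (-1.55 ± 0.19 SE on the log2 scale, edgeR adjusted p = 1.11e-09). NLRC5 stood at 1.22 ± 0.33 CPM (SD, n = 4) in the leader line, 1.23 ± 0.189 in parental cells and 3.58 ± 0.481 in the follower line. In clone 98 against clone 99, HLA-B, HLA-C and NLRC5 were called higher (1.62 ± 0.06, 1.75 ± 0.08 and 1.95 ± 0.22 on the log2 scale).

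Of 23 genes listed beside the chain genes on chromosome 6, 10 were tested. All leader libraries lay above the 36 others in 0 of these 10, near the share of 2.83% over all genes tested. None was called in the leader line against parental cells by edgeR or DESeq2, with 3 at an unadjusted p under 0.05, beside 9.76% of all genes called by edgeR. WDR46 and KIFC1 were called lower against the follower line, where 12.7% of all genes were called lower.

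Beside CIITA and CD74, 4 of 8 genes tested had all leader libraries above the 36 others, against 2.83% of all genes tested. They were CLEC16A, NUBP1 and TVP23A near CIITA and NDST1 near CD74. CLEC16A, whose annotated span begins 1.5 kb beyond that of CIITA, stood at 31.2 ± 1.41 CPM (SD, n = 4) in the leader line and 23.0 ± 2.28 in parental cells. NUBP1, 96.9 kb on the other side, stood at 14.8 ± 0.706 and 9.57 ± 0.434, and TVP23A, 47.4 kb away, at 1.65 ± 0.184 and 0.850 ± 0.191. These differences were smaller than that of CIITA on the log2 scale, at 0.44 ± 0.07, 0.63 ± 0.07 and 0.96 ± 0.25 (SE), all under the fold threshold against parental cells (edgeR adjusted p = 1.14e-06, 2.38e-09 and 0.00158). TVP23A was called lower in the WT clones than in the leader line (log2 -1.24 ± 0.21 SE, edgeR adjusted p = 0.000757).

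The 2 nearest genes to CD74 showed no such gap: TCOF1, 1.3 kb away, was 0.21 ± 0.06 (SE) lower on the log2 scale in the leader line than in parental cells (edgeR adjusted p = 0.00737), and RPS14, 29.7 kb away, differed by 0.04 ± 0.04 (edgeR adjusted p = 0.56). NDST1, 72.9 kb away, stood at 240 ± 10.6 CPM (SD, n = 4) in the leader line and 188 ± 6.66 in parental cells. SYNPO, 188.2 kb away, was called higher in the leader line than in parental cells (log2 1.58 ± 0.21 SE, edgeR adjusted p = 1.69e-07), at 19.6 ± 2.51 and 6.56 ± 0.67 CPM (SD, n = 4), but WT clone 75 was above the leader line at 33.7 ± 3.65.

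**Figure D5:**
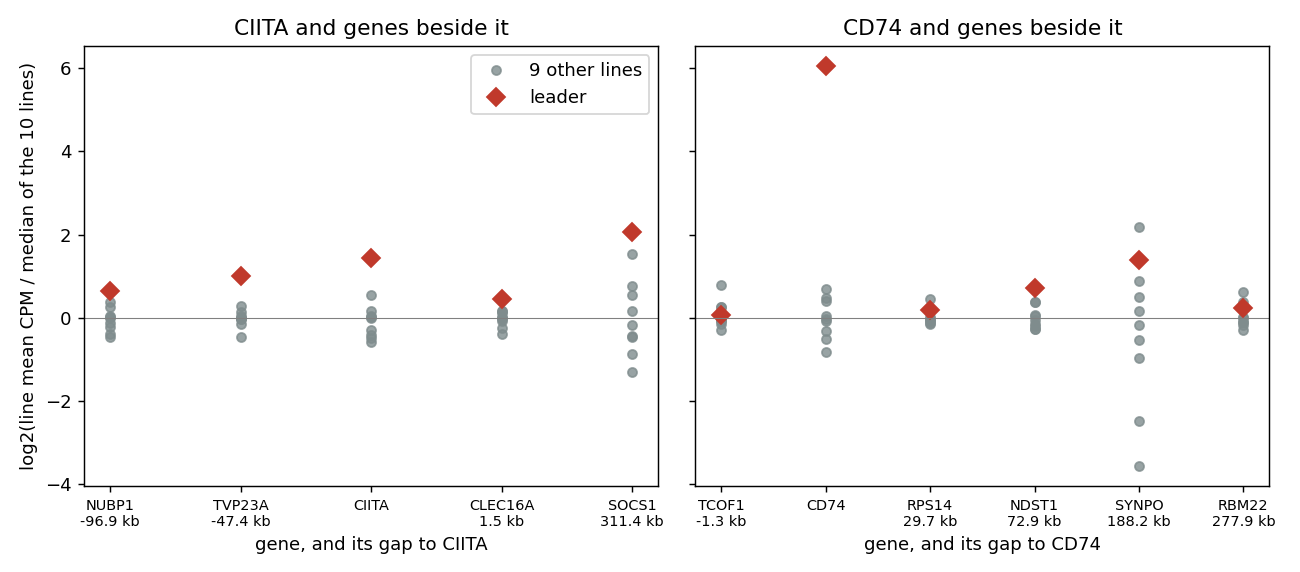
Log2 of a line's mean CPM over the median of the 10 lines, for CIITA and genes near it (left) and CD74 and genes near it (right), in genome order, with the gap to CIITA or CD74 in kb under each name. Red diamonds are the leader line and grey points the other 9 lines. The leader line is the highest of the 10 for CIITA, CLEC16A, NUBP1, TVP23A, SOCS1, CD74 and NDST1, and TCOF1 and RPS14 beside CD74 lie within the range of the other lines.

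Across the 10 line means of log2 CPM, the genes most like CD74 among 15024 searched were HLA-DQB1 (r = 0.991), LOC105372640 (0.975), LOC105372639 (0.969), COL4A2 (0.967) and SPATA13 (0.965), a description in which the leader line alone sets most of the range. Among the genes most like CIITA were LCMT1 (r = 0.893), RNF138P1 (0.881), ACADSB (0.874) and AMDHD2 (0.864). CIITA and CD74 themselves correlated over the 10 lines at r = 0.841, with a rank correlation of 0.37 and r = 0.269 without the leader line. For HLA-DRB1 and CIITA these were 0.868, 0.561 and 0.482. All 10 lines are H1299 cells, and the 10 points are not independent samples of a population.

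Markers of cells that carry class II constitutively were read beside these results. The summed CPM of 6 B cell markers was 1.32 to 1.87 in the leader libraries, 0.40 to 0.798 in the parental ones and 2.74 to 3.21 in WT clone 38, where HLA-DRA and HLA-DRB1 were at 0. MS4A1 was at 0 in all 40 libraries. CD22 held 213 reads in the leader line, all 4 libraries above the 36 others, and 143 elsewhere. Of the myeloid markers, PTPRC, the pan-leukocyte antigen, held 1 read in the leader line and 6 in all, CD14 held 31 in the leader line, and CD68 held 1846 to 4914 counts in each library. The 6 T and NK cell markers summed to at most 0.0761 CPM in a leader library. The part of other cells in the class II levels was otherwise not tested.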

How the data were processed

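RNA of 40 H1299 libraries was sequenced on a NovaSeq X-Plus, per the labels' protocols. Per the submitters' processing notes, STAR 2.7.11b and HTSeq 2.0.5 were used, fastp 0.23.4, FastQC 0.12.0 and MultiQC 1.24.1 as well, with build hg38; strand setting and annotation release are not given in the sources used here. The authors deposited raw counts, whole reads per gene symbol with no normalization. Of 59251 symbols, 17548 had no count.

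The counts were analysed with R 4.3.3 and edgeR 4.0.16 (limma 3.58.1), with DESeq2 1.42.0 as an alternative. Genes were kept with filterByExpr by line (minimum count 10, 19703 genes), with library sizes scaled by TMM (trimmed mean of M values). All 40 libraries entered 1 robust quasi-likelihood fit with a coefficient per line and 30 residual degrees of freedom. For several clones, a gene's p was the largest over line pairs, or 1 where pairs differed in sign. Adjustment was Benjamini-Hochberg over all genes tested, and calls needed an adjusted p under 0.05 and a log2 fold change of 1 or more in size. CPM is relative to the scaled total, with a prior count of 2 before log2 CPM was taken. Limits against 0 used 3 counts over a line, and ratios carry exact binomial 95% intervals. The fit was tested on simulated data.

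The genes and lists were chosen with earlier results of these data known. All 8 genes are given in every line; other genes come from lists of class II, regulator and processing genes where called, from class I and neighbouring genes as counts with examples, and from the 5 best correlations with CD74 and CIITA. CTSD, CTSS, RFX5, CD22, RPS18 and class I genes or neighbours beyond 4 examples were named after their values were seen. The neighbour positions, the segment check, the single-clone comparisons and the check of IRF1 were added after seeing the data. Positions follow GENCODE on GRCh38. The lowest Spearman coefficient between cultures of a line was 0.9906, and all such pairs differed by more than counting error. Results of some listed genes are not reported here.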

Additional observations from a re-analysis of the deposited data

Results flagged for a closer look

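HLA-DRB1 in the parental cells had 1 library, replicate 1, apart from the others, at 0 CPM with the nearest at 0.0460. In the follower line replicate 4 was apart, at 0.0255 CPM with the others at 0. Both rest on 0 to 2 reads a library, and 1 read in 1 library beside 0 in the others is always set apart. The rule sets apart a library in about 5% of groups by chance for normally distributed values, so that rate is no guide here. Of the 40 groups looked at, those at 0 in all libraries could not be set apart.

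Clones of 1 genotype differed in 3 values, each by the test between the clones themselves. The fitted log2 difference of HLA-DRB1 was 3.52 between JAG1 KO clones 35 and 72, on 5 reads against 0, and 6.51 between MYO10 KO clones 98 and 99, on 47 reads against 0. Fitted values against a clone at 0 depend on the prior count of the fit and are no bound: the ratios are at least 1.73 and at least 15.5. CD74 differed by 1.18 on the log2 scale between clones 98 and 99, on 44 reads against 19. RXRB and RGL2 of the segment were lower in clone 35 than in clone 72, and HLA-B and HLA-C were higher in clone 98 than in clone 99. The part of these in the class II differences was not tested.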

How the results depend on the processing

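For the 8 genes, 52 results were recomputed under 806 alternative values (other scalings, no filter on low counts, DESeq2, a replicate block, each replicate left out, and for several clones the p of the average). Of these, 790 were classed as unchanged, 7 fell below the threshold, 9 counts moved by more than 1.5 times and 0 were classed as reversed. The unchanged class included smaller moves of a count, such as 4 to 3 members called in the leader line against parental cells. It also included a change of sign in a value that was not called. CIITA in the MYO10 knockdown clone against the WT clones, at -0.05 on the log2 scale, ran from -0.13 to 0.02. With DESeq2, HLA-DRA was no longer called in the leader line against parental cells (adjusted p = 0.362) or follower cells (0.288), or in the WT clones against the leader line (0.431). The cause was not tested. The other 4 weaker values are HLA-DRB1 between clones 35 and 72 without replicate 3 of clone 35 (log2 2.73) and CD74 between clones 98 and 99 without replicate 1 of clone 98 or replicate 1 or 3 of clone 99 (log2 1.00 to 1.02).

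With the p of the average over lines in place of the weakest pair, the genes called went from 406 to 1707 in JAG1 KO clones and from 1588 to 2815 in MYO10 KO clones, with 0 members called in either. Leaving out 1 replicate at a time, members called lower in the follower line against parental cells ran from 0 to 1 (HLA-DRB1, without parental replicate 1 or follower replicate 4), those called higher in clone 35 against clone 72 from 0 to 2 (0 without replicate 3 of clone 35, 2 without replicate 2 of clone 72), and those in clone 98 against clone 99 from 1 to 2. Without the filter, 41703 genes were tested, and HLA-DPB1 was also called in the leader line against parental cells (adjusted p = 6.33e-06), against follower cells (0.000196) and against the WT clones (6.63e-06), whereas HLA-DMA, HLA-DMB and HLA-DPA1 were not. Summing HLA-DRB1, HLA-DRB5 and HLA-DRB6, an alternative chosen after seeing the data, kept the calls of HLA-DRB1 in the leader line against parental and follower cells and in the WT clones against the leader line, and was not run for the other comparisons.

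The replicate numbers of the labels did not pair the libraries: of 72 same-numbered pairs of lines, 11 had deviations correlated above 0.1, over a range of -0.149 to 0.211. With the replicate block, CIITA in the leader line against parental cells was 1.44 on the log2 scale and CD74 6.09, 1932 genes were called against 1923 without it, and no call of the 4 genes changed in any of the 10 comparisons.

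A gene at 0 in a line has a limit of up to 0.0186 CPM, and in the MHC segment a count near 0 is not evidence of absence. The leader and follower states and the genotypes with 1 clone rest on 1 line each, so that a line's state and other properties of the line cannot be told apart.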
